A study of Mus musculus with 6 samples.

Results

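The genes examined here encode secreted cytokines of activated T cells other than the IL-17 and interferon families: Il2, Il3, Il4, Il5, Il9, Il10, Il13, Il21, Il22 and Csf2. They were taken by exact gene symbol from the platform annotation, with the probe set of highest mean over all 6 arrays standing for a gene, which gave 10 genes out of 22180 with a probe set of a single symbol. Of the 10, 6 had a group mean above the highest array median in at least 1 culture condition and 4 (Il2, Il4, Il5 and Il22) lay under every array median in both. RNA had been hybridised to 6 Affymetrix arrays, and the values are RMA log2 intensities (an RMA value summarises the background-corrected brightness of all probes of a probe set). The Tc17 group held mouse spleen CD8+ T cells, sorted as naive, stimulated with antibodies to CD3 (1 µg/ml) and CD28 (3 µg/ml), grown with IL-6 and TGFb for 3 days and then with IL-2 for 1 day. The Tc1 group was stimulated in the same way and grown with IL-12 for 3 days, then likewise with IL-2 for 1 day. The labels give neither strain, sex and age nor the number of mice behind a sample. Each group had samples numbered 1 and 2, titled biological replicates. Its 1 technical array was read as a repeat of sample 2 and averaged with it, so n = 2 samples per group throughout.

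Cytokines of this set act through receptors that signal by JAK kinases and STAT transcription factors. IL-2, IL-4, IL-9 and IL-21 use receptors that share the common gamma chain. The receptors of IL-3, IL-5 and GM-CSF (the product of Csf2) share a common beta chain. IL-10 and IL-22 belong to the IL-10 family, and both use receptors that hold the chain encoded by Il10rb. In T cells IL-2 sustains growth, IL-4, IL-5 and IL-13 mark the type 2 state, IL-9 marks a state driven by TGF-beta with IL-4, IL-21 is induced by IL-6 through STAT3, and IL-10 restrains inflammation.

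The array medians lay between 6.04 and 6.09 on the log2 scale. The median serves here as a dividing line for dim genes; it does not measure background, and detection calls were not analysed here. The markers of CD8+ T cells bore out the label: Cd8a, Cd8b1, Cd3d, Cd3e and Cd3g averaged 12.60 to 12.67 over the 3 Tc17 arrays and 12.62 to 12.71 over the 3 Tc1 arrays (log2 intensity), and none passed the test. All 4 measured granulocyte markers, both natural killer cell markers and 4 of 5 dendritic cell markers stayed under every array median in Tc17 and Tc1 alike. So did 2 of 5 B cell markers and Cd40lg, 1 of 3 CD4 T cell markers. Of the rest, Cd79b had group means of 10.32 in Tc17 and 9.80 in Tc1, and its Tc17 arrays all lay above its Tc1 arrays. Cd4 measured 6.99 in Tc17 and 7.05 in Tc1, and Zbtb7b 7.78 and 7.91. In the same order Itgax measured 6.48 and 6.08, Pax5 6.35 and 6.35, and Cd79a 6.06 and 6.05. None of the markers of these 5 cell types passed the test, and neither did the 3 of gamma delta T cells and NKT cells. Of 7 mast cell and basophil markers 6 stayed under every array median in Tc17 and Tc1 alike, and Kit, the stem cell factor receptor gene, was called higher (10.65 ± 0.015 in Tc17 and 9.34 ± 0.10 in Tc1, SD, n = 2 each). The log2 levels of the 7 added up to between 37.92 and 38.21 on the Tc17 arrays and between 36.48 and 37.34 on the Tc1 arrays. Kit differed by 1.32 on the log2 scale and the other 6 by between −0.09 (Cpa3) and 0.11 (Mcpt8), with a median of −0.04 over the 7. Of 6 macrophage and monocyte markers 2 (Adgre1 and Cd14) stayed under every array median in Tc17 and Tc1 alike, and Lyz2, a lysozyme gene, was called higher (8.97 ± 0.30 in Tc17 and 5.44 ± 0.0042 in Tc1, SD, n = 2 each). The log2 levels of these 6 added up to between 38.60 and 40.05 on the Tc17 arrays and between 34.55 and 35.36 on the Tc1 arrays. All 6 were higher in Tc17, by 0.07 (Fcgr3) to 3.53 (Lyz2) on the log2 scale, with a median of 0.27. For Adgre1, Cd14 and Csf1r, as for Lyz2, every Tc17 array lay above every Tc1 array. Over all genes the arrays did not overlap, in either direction, in 29.7%. The part of other cells in the differences described here was not tested.

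The comparison asked how the cytokine genes of Tc17 cells differ from those of Tc1 cells. No array held naive or unpolarised cells, so rose and fell mean higher and lower in Tc17 than in Tc1. Il21 and Il3 rose in Tc17 cells, by 19.0-fold and 8.24-fold in array intensity. Il9 had a difference of similar size (log2 difference 3.17) and Il10 one in the opposite direction (−1.81), and neither passed the test. The other 6 genes differed by between −0.19 and 0.36 on the log2 scale, with Csf2 taken by the brighter of its probe sets. The other Csf2 probe set differed by 0.64 and was not called either. A call means an adjusted p under 0.05 in limma's moderated test across all 41345 probe sets. With that rule 2 of the 10 genes were called, both higher, against 1.58% of all genes called in either direction, 0.992% called higher and 0.591% called lower. A difference of at least 2-fold was seen in 4 of the 10 (3 higher and 1 lower), against 2.06% of all genes. The 3 Tc17 arrays did not overlap the 3 Tc1 arrays in 5 of the 10, against 29.7% of all genes. The median log2 difference was 0.05 over the 10 and −0.01 over all genes. In RNA from whole cultures, fewer cells that make a cytokine and less RNA per cell cannot be told apart.

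**Figure D1:**
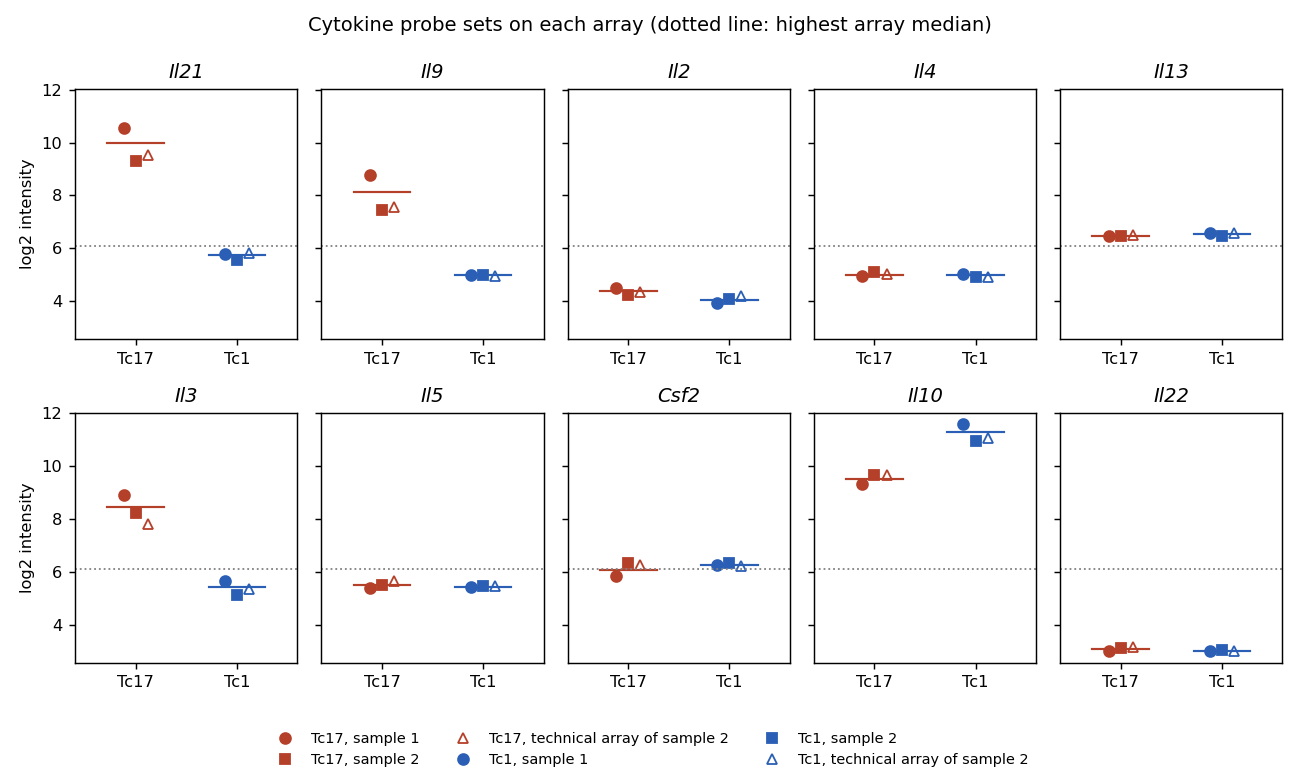
Log2 intensity of the probe set of each of the 10 cytokine genes on each array, with Tc17 on the left and Tc1 on the right of each panel. Filled circles are sample 1, filled squares sample 2, open triangles the technical array of sample 2, short lines the mean of the 2 samples and the dotted line the highest array median (6.09). Il21, Il9 and Il3 lie above the line in Tc17 and below it in Tc1, Il10 lies above it in both groups, and Il2, Il4, Il5 and Il22 lie below it in both.

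Il21 encodes a cytokine that acts on T cells and B cells and, in CD4+ T cells, feeds back on type 17 differentiation. Its probe set (17404888) gave 10.54 for sample 1 of Tc17, with 9.28 and 9.54 for the arrays of its sample 2, against 5.76 for sample 1 of Tc1, with 5.56 and 5.81 for the arrays of its sample 2 (log2 intensity). Every Tc17 array stood at least 3.47 above every Tc1 array, and the Tc1 values all lay below the array medians. The group means were 9.98 ± 0.80 in Tc17 and 5.72 ± 0.05 in Tc1 (SD, n = 2 each), which differ by 4.25 ± 0.38 on the log2 scale (SE, 95% interval 3.25 to 5.25, limma adjusted p = 0.0274). By size, 0.0496% of genes had a larger difference in either direction. Since the Tc1 level lay below the array medians, the fold holds for intensities and not for transcripts, and the same applies to Il3 and Il9.

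Il3 encodes a growth factor of blood cell progenitors, mast cells and basophils. Its probe set (17262823) gave 8.93 for sample 1 of Tc17, with 8.23 and 7.82 for the arrays of its sample 2, against 5.64 for sample 1 of Tc1, with 5.11 and 5.33 for the arrays of its sample 2. The lowest Tc17 array stood 2.17 above the highest Tc1 array, and the arrays of sample 2 differed by 0.41 in Tc17 and 0.22 in Tc1. The group means were 8.47 ± 0.64 in Tc17 and 5.43 ± 0.30 in Tc1 (SD, n = 2 each), which differ by 3.04 ± 0.33 on the log2 scale (SE, 95% interval 2.16 to 3.92, limma adjusted p = 0.0437). Il3 was not called without Tc1 sample 1, Tc1 sample 2 or Tc17 sample 1, where it differed by 3.25, 2.83 and 2.59 (log2; limma adjusted p = 0.149, 0.17 and 0.0818). Il21 was not called without Tc1 sample 1 or Tc1 sample 2 (differences of 4.29 and 4.21, limma adjusted p = 0.139 and 0.138).

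Il9 encodes a growth factor of mast cells and T cells. Its probe set (17293013) gave 8.77 for sample 1 of Tc17, with 7.46 and 7.55 for the arrays of its sample 2, against 4.99 for sample 1 of Tc1, with 4.97 and 4.93 for the arrays of its sample 2. The groups did not overlap, and the gap of 1.26 between the Tc17 samples was the widest of the 10 genes, while the Tc1 samples lay within 0.05 of each other. The group means were 8.14 ± 0.89 in Tc17 and 4.97 ± 0.03 in Tc1 (SD, n = 2 each). The log2 difference of 3.17 ± 0.42 (SE, 95% interval 2.06 to 4.28) did not pass (limma adjusted p = 0.0661). It was 3.19 without Tc1 sample 1 and 3.15 without Tc1 sample 2 and passed in neither fit (limma adjusted p = 0.239 and 0.213). It passed without Tc17 sample 1 (2.54, limma adjusted p = 0.031) and without Tc17 sample 2 (3.80, limma adjusted p = 0.0177), where the lone Tc17 sample was assumed to vary like the Tc1 samples, as the lone sample was in the other fits without 1 sample.

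Il21, Il9 and Il3 had the widest gaps between the Tc17 samples among the 10 genes, at 1.13, 1.26 and 0.90 on the log2 scale, with sample 1 above sample 2 in each. A wider Tc17 gap was found in 31 genes for Il21, 20 for Il9 and 62 for Il3. The arrays of Tc17 sample 2 differed by 0.25, 0.09 and 0.41, less than the samples did in each case. With sample 1 set against sample 1 and sample 2 against sample 2, the Tc17 minus Tc1 differences were 4.78 and 3.72 for Il21, 3.78 and 2.56 for Il9 and 3.28 and 2.80 for Il3. Outside the set the IL-17 genes also stood higher in Tc17 sample 1 than in Tc17 sample 2, by 0.71 (Il17a) and 0.43 (Il17f). The same held for Ifng, which was lower in Tc17 than in Tc1, by 0.57. Tc17 sample 1 was the higher in 4 of the 10 genes and in 23 of 39 other cytokine and chemokine genes. Over all genes, 10528 of 22180 were higher in Tc17 sample 1 than in Tc17 sample 2.

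**Figure D2:**
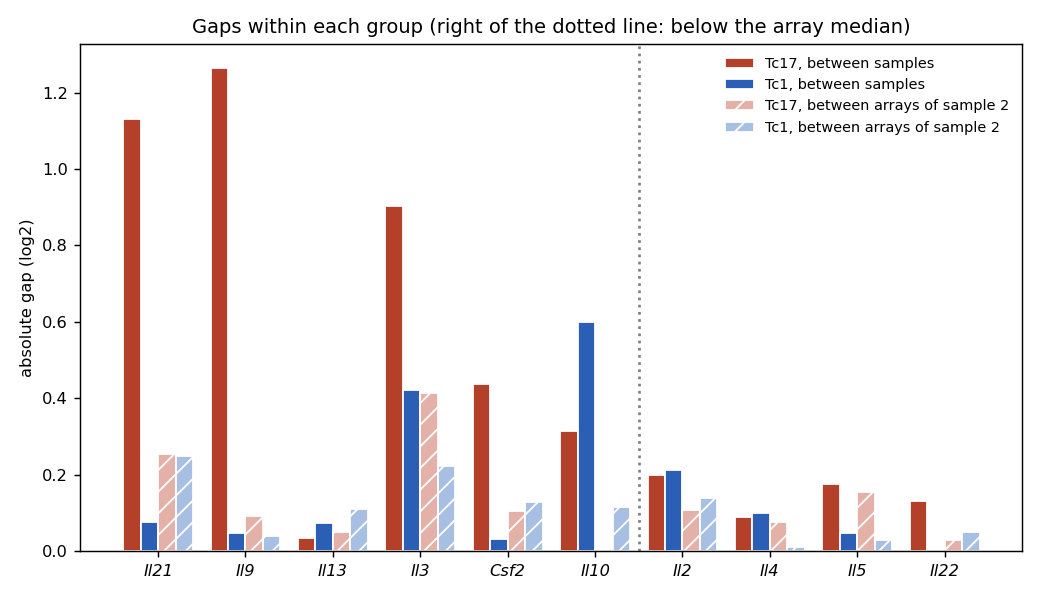
Absolute gap on the log2 scale between the samples of each group and between the arrays of sample 2, for each of the 10 cytokine genes, with bars starting at 0. Il9, Il21 and Il3 have the tallest Tc17 sample bars (1.26, 1.13 and 0.90), Il10 has the tallest Tc1 sample bar (0.60), and the 4 genes right of the dotted line lie below every array median in both groups.

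Il10 encodes an anti-inflammatory cytokine that effector CD8+ T cells can also make. Its probe set (17216990) gave 9.34 for sample 1 of Tc17, with 9.65 and 9.66 for the arrays of its sample 2, against 11.60 for sample 1 of Tc1, with 10.95 and 11.06 for the arrays of its sample 2. All 6 arrays were above the array medians, and every Tc17 array lay at least 1.29 below every Tc1 array. The group means were 9.50 ± 0.22 in Tc17 and 11.30 ± 0.42 in Tc1 (SD, n = 2 each). The log2 difference of −1.81 ± 0.23 (SE, 95% interval −2.42 to −1.19) corresponds to a 3.50-fold lower intensity in Tc17 and did not pass (limma adjusted p = 0.0625).

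Il2, the gene of the T cell growth factor that was also added to both cultures as protein, gave 4.49 for sample 1 of Tc17, with 4.24 and 4.35 for the arrays of its sample 2, against 3.93 for sample 1 of Tc1, with 4.07 and 4.21 for the arrays of its sample 2. The groups were separated by 0.03, and all values lay below the array medians. At 0.36 ± 0.12 (SE) on the log2 scale, with a 95% interval of 0.05 to 0.67, Il2 missed the threshold by limma's test (adjusted p = 0.315).

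The type 2 genes Il4, Il5 and Il13 showed no difference that passed. Il4, the gene of the cytokine that directs type 2 differentiation, ranged from 4.96 to 5.08 on the Tc17 arrays and from 4.91 to 5.02 on the Tc1 arrays. Il5, which encodes the eosinophil growth factor, measured 5.48 ± 0.12 in Tc17 and 5.44 ± 0.03 in Tc1 (SD, n = 2 each). Both lay below every array median, with arrays that overlapped between the groups and 95% intervals for the difference of −0.19 to 0.25 for Il4 and −0.20 to 0.29 for Il5. Il13, whose product drives mucus and barrier responses, lay just above the array medians, from 6.45 to 6.51 on the Tc17 arrays and from 6.45 to 6.58 on the Tc1 arrays. Its log2 difference of −0.07 ± 0.08 (SE, limma adjusted p = 0.762) had a 95% interval of −0.27 to 0.12. Il22, an IL-10 family cytokine that acts on epithelium, measured 3.08 ± 0.09 in Tc17 and 3.02 ± 0.0025 in Tc1 (SD, n = 2 each), below every array median, with a 95% interval of −0.16 to 0.28. Intervals of this kind at such levels bound the difference in intensity and say little of transcripts.

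Csf2, the gene of GM-CSF, was the only one of the 10 with more than 1 probe set, and its 2 probe sets disagreed in sign. The brighter (17249636) gave 5.86 for sample 1 of Tc17, with 6.35 and 6.24 for the arrays of its sample 2, against 6.25 for sample 1 of Tc1, with 6.34 and 6.22 for the arrays of its sample 2. The groups overlapped, with Tc17 sample 1 lowest, and the mean difference was −0.19 ± 0.16 on the log2 scale (SE, adjusted p = 0.712 by limma) and 0.03 without that sample. The other probe set (17262816) gave 6.51 for sample 1 of Tc17, with 5.92 and 5.85 for the arrays of its sample 2, against 5.48 for sample 1 of Tc1, with 5.68 and 5.60 for the arrays of its sample 2. Its Tc17 arrays all lay above its Tc1 arrays, apart by 0.64 ± 0.22 in the means (log2, SE; adjusted p = 0.345 by limma). No direction is given for Csf2.

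**Figure D3:**
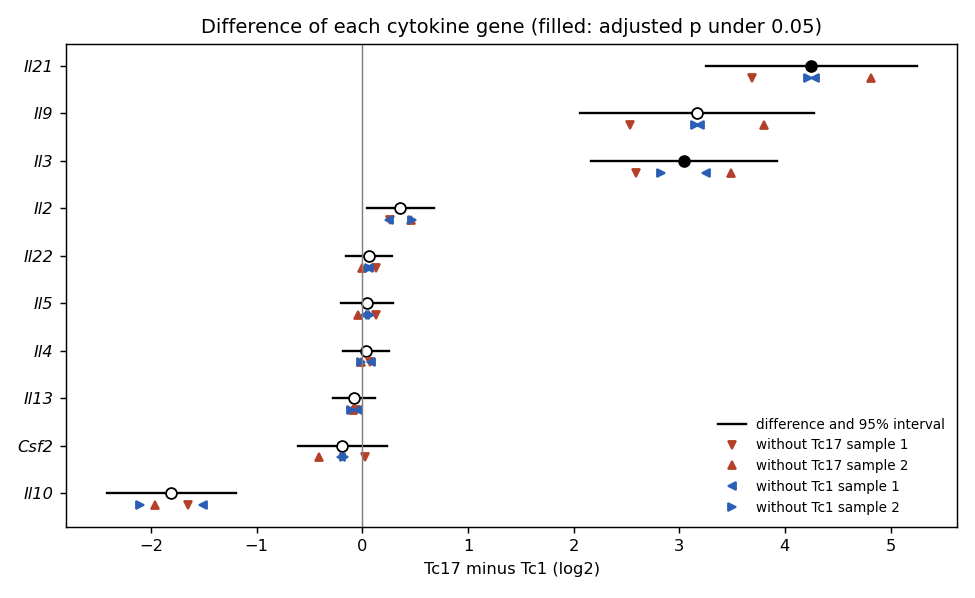
Tc17 minus Tc1 difference on the log2 scale for each of the 10 cytokine genes, with its 95% interval as a line, filled circles for adjusted p under 0.05 and triangles for the difference without each sample in turn. Il21, Il9 and Il3 lie between 2.54 and 4.82 in all of these fits and Il10 between −2.11 and −1.51. The other 6 genes lie closer to 0, with Csf2 drawn by its brighter probe set only (the other differed by 0.64).

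Sequences upstream of the start sites are given for the 3 genes with the largest positive differences and for Il2, the gene next to Il21 on chromosome 3, which was dim in both groups. Windows of 250 bases before the annotated start (RefSeq, GRCm38.p6) were found for 9 of the 10 genes, and Il10 was not matched. The windows printed are chr3:37232637-37232886, minus strand, for Il21; chr13:56482258-56482507, minus strand, for Il9; chr11:54267280-54267529, minus strand, for Il3; and chr3:37125955-37126204, minus strand, for Il2. They read 5′ to 3′ towards the gene. Capitals mark GGAAA, the core of NFAT sites, on either strand (TTTCC on the printed one), and the AP-1 letters TGANTCA, found as TGACTCA in the Il9 window.
Il21: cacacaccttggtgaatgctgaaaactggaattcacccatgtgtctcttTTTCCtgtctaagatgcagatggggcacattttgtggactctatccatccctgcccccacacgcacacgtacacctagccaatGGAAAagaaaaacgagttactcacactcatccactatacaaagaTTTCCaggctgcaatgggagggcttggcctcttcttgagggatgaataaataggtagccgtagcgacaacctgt
Il9: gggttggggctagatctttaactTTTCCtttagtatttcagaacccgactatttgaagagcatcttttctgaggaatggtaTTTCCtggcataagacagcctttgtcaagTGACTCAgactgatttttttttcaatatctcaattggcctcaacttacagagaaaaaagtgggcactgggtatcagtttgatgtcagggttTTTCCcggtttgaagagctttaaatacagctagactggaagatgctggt
Il3: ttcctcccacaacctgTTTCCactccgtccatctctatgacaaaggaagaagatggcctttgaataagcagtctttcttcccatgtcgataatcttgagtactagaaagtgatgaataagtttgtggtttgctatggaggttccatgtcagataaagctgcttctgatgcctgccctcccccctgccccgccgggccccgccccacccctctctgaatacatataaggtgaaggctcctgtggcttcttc
Il2: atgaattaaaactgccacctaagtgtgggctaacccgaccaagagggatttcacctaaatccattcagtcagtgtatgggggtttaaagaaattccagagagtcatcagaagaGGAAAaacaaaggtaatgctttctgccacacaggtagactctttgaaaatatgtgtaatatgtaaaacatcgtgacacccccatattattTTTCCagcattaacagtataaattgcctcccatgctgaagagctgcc

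NFAT and AP-1 are factors that T cell receptor signals activate. GGAAA occurred 3 times in the Il21 window, 3 times in that of Il9, 1 time in that of Il3 and 2 times in that of Il2. It was present in 9 of the 10 windows of the set (Il4 has 2 start sites) and in 55.6% of all promoter windows of this length. TGANTCA was found in the Il9 window alone, 140 bases before the start and overlapped by a SMAD letter match (CAGAC), and occurs in 6.75% of all windows. TTCNNNGAA, the letters of STAT sites, was in none of the 10 windows and in 7.02% of all. TGCTGA, a MAF half-site, was in 4 windows of the set, those of Il2, Il21, Il13 and 1 of the 2 of Il4, and in 16.1% of all. CAGAC was in 5 windows of the set against 42.2% of all, and GATAA, the letters of GATA sites, in 4 against 22.6%. Both strands were searched for each, and a match is a run of letters, not a measured binding site.

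Some cytokine genes of this set lie in groups on the chromosomes, and called genes stood beside genes that were not called. A gene that was not called can still differ. Il2 and Il21 are neighbours on chromosome 3: Il21 rose, and Il2 and the genes Adad1, Cetn4 and Bbs12 beside them had log2 differences of 0.36, 0.11, 0.03 and 0.17, none called. Csf2 and Il3 are neighbours on chromosome 11, and Acsl6, the gene of a fatty acid-activating enzyme on the far side of Il3, rose with it (2.64-fold, limma adjusted p = 0.0437). Acsl6 gave 8.80 for sample 1 of Tc17, with 8.25 and 8.52 for the arrays of its sample 2, against 7.21 for sample 1 of Tc1, with 7.06 and 7.28 for the arrays of its sample 2. Meikin, the next gene, had a log2 difference of −0.03, and Fnip1 after it one of 0.55. On the side of Csf2, the genes 4933405E24Rik, P4ha2 and Pdlim4 had log2 differences of 0.03, 0.47 and −0.01. Apart from Acsl6, none of these neighbours of Csf2 and Il3 was called.

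In the Il4, Il13 and Il5 group on the same chromosome, Rad50, a DNA repair gene between Il13 and Il5, had a log2 difference of −0.07. Kif3a, a motor protein gene beside Il4, had one of 0.22. Beyond Kif3a, A430108G06Rik and Septin8 had log2 differences of −0.06 and 0.81, neither called. Irf1, an interferon-induced transcription factor gene beside Il5, fell by 1.17 on the log2 scale (limma adjusted p = 0.0296). Around Il10 on chromosome 1 the related genes Il19 and Il20 had log2 differences of −0.06 and −0.11, and Il24, also of the IL-10 family, rose 5.98-fold in Tc17 (limma adjusted p = 0.0196). Il24 gave 11.41 for sample 1 of Tc17, with 11.16 and 11.12 for the arrays of its sample 2, against 8.94 for sample 1 of Tc1, with 8.56 and 8.34 for the arrays of its sample 2, so it lay opposite in sign to Il10.

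Beside Il22 on chromosome 10, its near copy Iltifb had a log2 difference of 0.11, and both were dim; RNA of one copy binding the probes of the other could not be told apart. Mdm1 on its other side fell (−0.92, limma adjusted p = 0.0226), and Ifng, the third gene along, fell by 5.49 on the log2 scale. Around Il9 on chromosome 13 the adjacent genes Slc25a48 and Fbxl21 had log2 differences of −0.04 and 0.04, and Tgfbi, the third gene along and a TGF-beta response gene, rose 2.50-fold (limma adjusted p = 0.0174). In all, 37 genes other than the 10 were among the 3 nearest on either side. Of these, 6 were called (3 higher and 3 lower), against 1.58% of all genes called in either direction. In both conditions 12 stayed under every array median, and the median log2 difference of the 37 was −0.01.

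**Figure D4:**
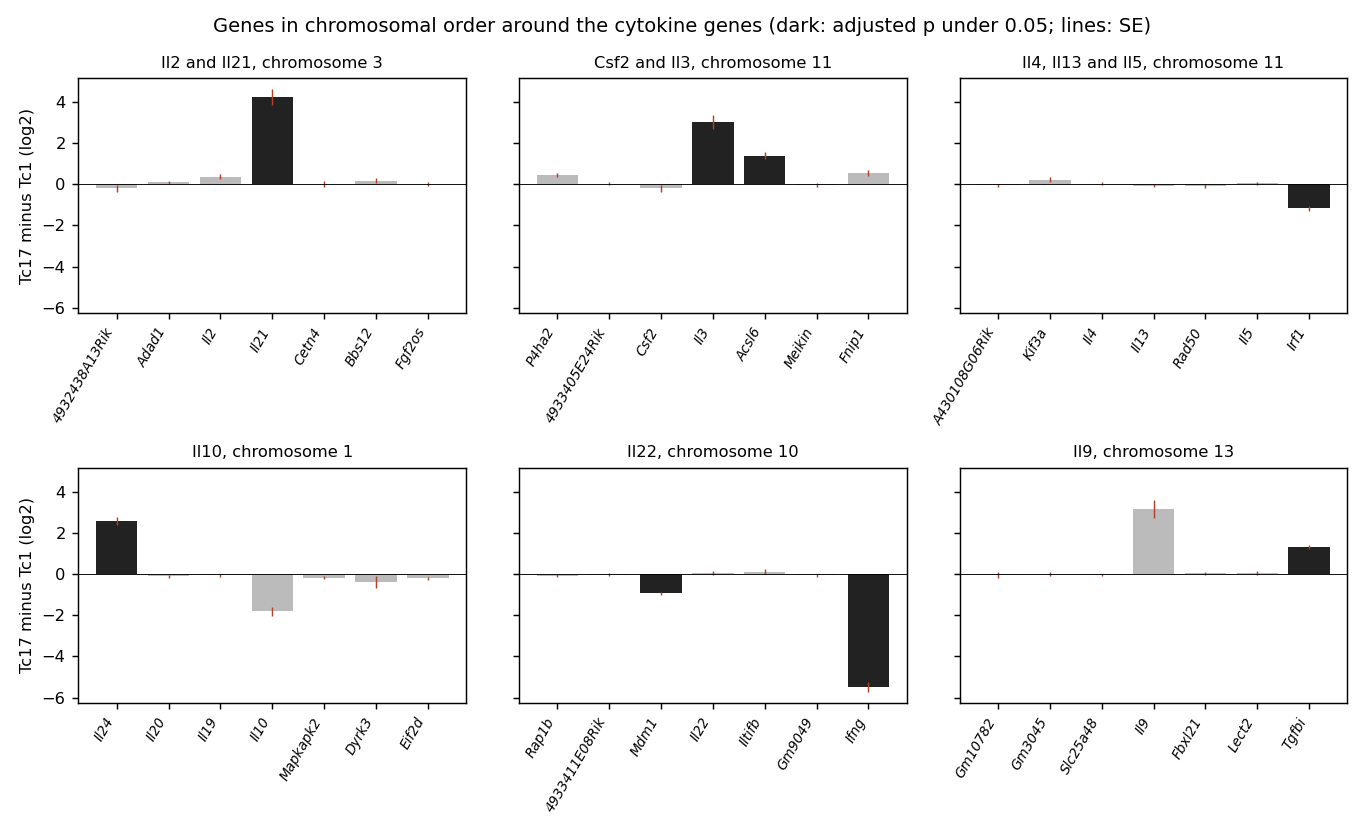
Tc17 minus Tc1 difference on the log2 scale for the genes nearest to each cytokine gene, in chromosomal order, with SE lines and dark bars for adjusted p under 0.05. Il21 (4.25) stands beside Il2 (0.36), and Il24 (2.58) and Il10 (−1.81) point in opposite directions. Il3 (3.04) stands beside Csf2, drawn by its brighter probe set (−0.19), while the other Csf2 probe set differed by 0.64.

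No gene of a receptor chain for these cytokines passed the test. Of 16 measured, none was called by limma, and Il2rg was not analysed here. By limma 5 of the 16 had an unadjusted p under 0.05, against 3524 of 22180 genes. In Tc17 and Tc1 alike 5 stayed under every array median. The median log2 difference was 0.02, with 8 differences above 0 and 8 below. Il13ra1, a chain of the receptor for IL-4 and IL-13, measured 7.07 ± 0.29 in Tc17 and 5.74 ± 0.08 in Tc1 (SD, n = 2 each), and its log2 difference of 1.33 ± 0.16 (SE) missed the threshold (limma adjusted p = 0.0509). Il10ra, the ligand-binding chain of the IL-10 receptor, measured 9.29 ± 0.04 in Tc17 and 10.30 ± 0.33 in Tc1 (SD, n = 2 each), which differ by −1.02 ± 0.17 (log2, SE; adjusted p = 0.106 by limma), the same sign as Il10. The receptor gene of IL-21, Il21r, measured 11.82 ± 0.18 in Tc17 and 11.79 ± 0.03 in Tc1, and Il3ra, which encodes the chain specific to IL-3, 8.43 ± 0.10 in Tc17 and 8.44 ± 0.01 in Tc1 (SD, n = 2 each). The IL-2 receptor chains Il2ra and Il2rb had log2 differences of −0.01 and −0.09. Csf2ra differed by 0.60 ± 0.08 on the log2 scale (SE, limma adjusted p = 0.0661). Il4ra and Csf2rb2, which lay under every array median, each differed by 0.48. The Tc17 arrays of Csf2ra, Il4ra and Csf2rb2 all lay above their Tc1 arrays. Apart from Il13ra1 and Il10ra, these receptor genes were named after their values were seen.

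Genes that these receptors induce through STAT factors gave no call either. Of 11 measured, none passed in limma's test, and 7 had differences above 0 and 4 below. Their median was 0.25 on the log2 scale, against −0.01 over all genes. By limma 6 of the 11 had an unadjusted p under 0.05, against 3524 of 22180 genes. The gene of Socs3, a feedback inhibitor of STAT3 signalling, differed by 0.67 ± 0.15 on the log2 scale (SE, adjusted p = 0.185 by limma). Pim1, a survival kinase gene, measured 11.81 ± 0.15 in Tc17 and 12.47 ± 0.22 in Tc1 (SD, n = 2 each). Its log2 difference was −0.66 (adjusted p = 0.164 by limma). Of the others, Cish, Socs2, Socs1, Il4ra, Bcl2 and Myc had log2 differences of 0.65, 0.63, 0.60, 0.48, 0.25 and 0.09. Those of Il2ra, Bcl3 and Bcl2l1 were −0.01, −0.02 and −0.37.

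Of 32 measured transcription factor genes known to act on cytokine genes in T cells, Maf and Ahr rose and Tbx21 fell. Over all genes 1.58% were called in either direction. An unadjusted p under 0.05 by limma was found for 17 of the 32, against 3524 of 22180 genes. Maf, whose product activates Il21 and Il10 in CD4+ T cells, measured 10.67 ± 0.07 in Tc17 and 7.17 ± 0.14 in Tc1, and Ahr, the dioxin receptor gene, 11.11 ± 0.31 in Tc17 and 6.67 ± 0.39 in Tc1 (SD, n = 2 each). Tbx21, which encodes T-bet, measured 8.60 ± 0.07 in Tc17 and 11.39 ± 0.04 in Tc1 (SD, n = 2 each). Of the genes not called, Prdm1, which encodes the repressor Blimp-1, had the largest log2 difference (−2.38 ± 0.31 SE, limma adjusted p = 0.0621), the same sign as that of Il10, and Bcl6 had one of 0.88 (limma adjusted p = 0.667). The median over the 32 was 0.15 on the log2 scale, and 20 differences were above 0.

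Among 39 other measured cytokine and chemokine genes 3 rose and 3 fell, with a median log2 difference of 0.01. Over all genes 0.992% were called higher and 0.591% lower. An unadjusted p under 0.05 by limma was found for 14 of the 39, against 3524 of 22180 genes. The rises were those of Il17f, Il17a and Il24, with log2 differences of 6.09, 5.21 and 2.58. Ifng and Ccl5 fell, by 5.49 and 2.87 on the log2 scale, and so did Fasl, named after its value was seen, by 1.57. Lif, the gene of leukaemia inhibitory factor, measured 10.94 ± 0.30 in Tc17 and 8.63 ± 1.03 in Tc1 (SD, n = 2 each), and at 2.31 on the log2 scale missed the threshold (adjusted p = 0.168 by limma). Il1a, an inflammatory cytokine gene, gave 8.16 for sample 1 of Tc17, with 5.52 and 5.83 for the arrays of its sample 2, against 4.80 to 4.94 on the Tc1 arrays. Tc17 sample 1 alone lay above the array medians for Il1a, as it did for Il1b (named after its value was seen), at 7.94 there against 5.49 and 5.82 on the arrays of Tc17 sample 2.

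**Figure D5:**
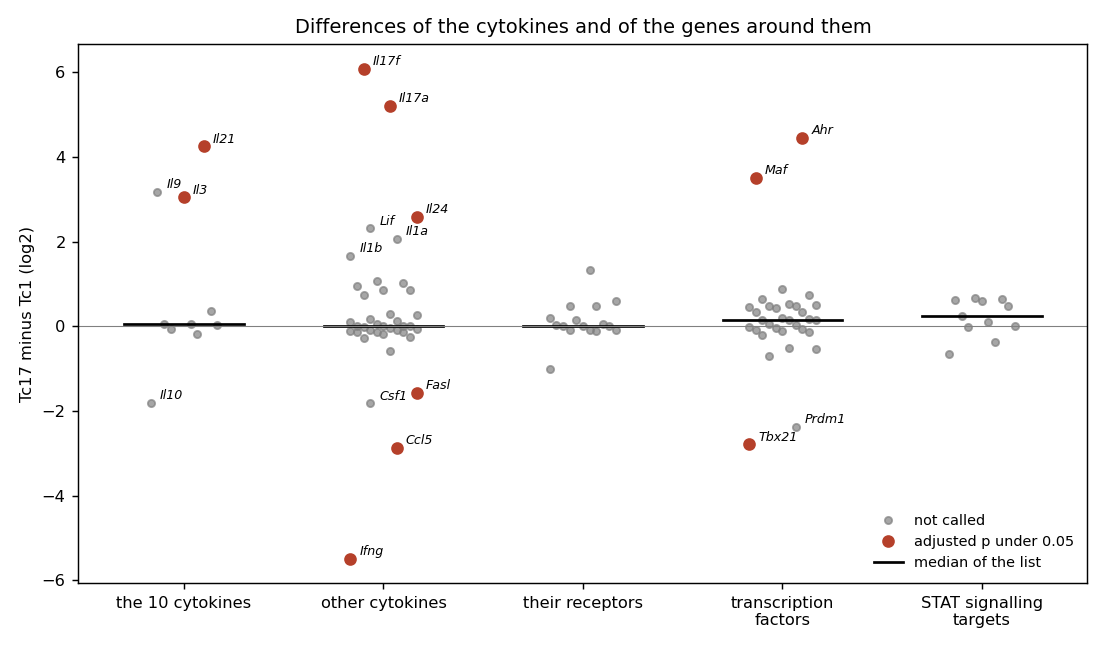
Tc17 minus Tc1 difference on the log2 scale for the 10 cytokine genes, for 39 other cytokine and chemokine genes, 16 receptor genes, 32 transcription factor genes and 11 STAT signalling targets. Each dot is a gene, with red for adjusted p under 0.05, and the black line is the list's median, which lies between 0.01 and 0.25; receptors and signalling targets hold no red dot.

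The genes whose pattern over the 4 samples lay nearest to that of Il21 were Timp1, Ahr and Pdpn, among 12296 genes above the array median in at least 1 group that had no provisional symbol (such as those starting with Gm or ending in Rik). The Euclidean distances, each gene centred on its own mean, were 0.23, 0.69 and 0.70 on the log2 scale. Timp1, which encodes a metalloproteinase inhibitor, measured 11.20 and 9.82 in Tc17 samples 1 and 2, against 6.21 and 6.32 in Tc1 samples 1 and 2. For Il10 the nearest were Mt3 (a metallothionein gene), Mycn (a MYC family factor gene) and Bspry, at distances of 0.17, 0.17 and 0.24. Mycn measured 6.54 and 6.78 in Tc17 samples 1 and 2, against 8.62 and 8.25 in Tc1 samples 1 and 2. These genes were chosen for their pattern, so their values are a description.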

How the data were processed

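The deposited values of 6 arrays are log2 intensities that the authors summarised by RMA; the submitters' processing notes also name Partek, without a version. The sources used here name no genome build and no detection call. The technical array was averaged with the sample of the same number, which leaves 2 samples per group. Their titles call them biological replicates, and whether they came from separate mice was not stated. The p-values rest on the spread between these samples, moderated by eBayes with that of all probe sets. That spread need not be a spread between mice. The test of Tc17 minus Tc1 was lmFit with eBayes from limma 3.58.1 (R 4.3.3), with 2 residual and 2.63 prior degrees of freedom, adjusted by Benjamini-Hochberg over 41345 probe sets, with no filter. An exact permutation test of 2 against 2 samples cannot go below a two-sided p of 0.333. The procedure was also run on simulated data with independent noise, which does not measure the spread between the samples here.

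Names came from the platform annotation (23521 probe sets with 1 symbol, 1814 with several, 16010 with none), and neighbours were taken by Entrez ID from the RefSeq table of GRCm38.p6. The 10 genes and all lists were chosen with earlier results of these data known. Named genes were the 10, and up to 5 called and the 2 largest uncalled genes above the array median of each list. Others came from the 3 nearest measured genes on each side and the 3 genes nearest in pattern. Any other gene of the lists was named after its values were seen. The fits were repeated with the technical arrays dropped or counted as samples, with a block for replicate number, after quantile normalization, with a level filter, with trend and robust moderation, with probe sets of a gene averaged, and without each sample.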

Additional observations from a re-analysis of the deposited data

How the results depend on the processing

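With 2 samples per group, the number of arrays limits every difference. The signs of Il21, Il9, Il3 and Il10 were the same in all 11 alternatives (ranges 3.69 to 4.82, 2.54 to 3.80, 2.59 to 3.49 and −2.11 to −1.51). Without each sample in turn, the log2 difference ranged from −0.016 to 0.082 for Il4, from −0.042 to 0.13 for Il5, from −0.0040 to 0.13 for Il22 and from −0.41 to 0.030 for Csf2, so these signs turned. Csf2 was also positive with the mean of its probe sets (0.22). None of the 4 was called in these fits.

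Leaving out each sample in turn gave 48 to 125 called probe sets, against 418, 0 to 3 of the 10 cytokine genes, 2 to 5 of the other cytokines, 2 to 3 transcription factors and 0 receptors and signalling targets. The 6 arrays taken as separate samples gave 2318 probe sets, 4 of the 10 genes (Il9 and Il10 added), 13 other cytokines, 4 receptors, 6 signalling targets and 10 transcription factors. Here repeats of a sample count as samples. With the replicate number as a block (replicate block) the counts were 1535, 4 (the same 4), 12, 3, 3 and 11. Deviations of same-numbered samples from their group means had a correlation of 0.31 over probe sets, and no source says that the numbers pair the samples. Testing only probe sets above the array median gave 644 probe sets, 4 of the 10 genes, 2 receptors (Csf2ra and Il13ra1) and 5 transcription factors. Fewer probe sets were tested there, with no values for Il2, Il4, Il5 and Il22. Il3, Il9, Il21 and the receptor gene Il13ra1 were kept there only through Tc17, where they are high, so these calls are no independent check. For the other alternatives (technical arrays left out, quantile normalization, trend and robust moderation, mean of probe sets) each of these counts was within 1.5 times the one reported, and the cause of the other changes was not tested.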
